A study of Mus musculus with 24 samples.

Results

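Among the most abundant transcripts of the mouse spinal cord, 39 genes had no N6-methyladenosine (m6A) peak in any of the 4 deposited peak lists. They were taken from 32884 genes by a rule with 3 conditions. The first was a mean of at least 50 FPKM (fragments per kilobase of transcript scaled to library size, a level per length) over the 12 input libraries. The second was no peak under the gene's own identifier. The third was a name without the prefixes of ribosomal, respiratory chain, mitochondrial, metallothionein, haemoglobin, S100, histone and predicted (Gm) genes or the ending of numbered pseudogenes. This filter went by the start or end of the name alone, so a gene outside those families with such a prefix would also be left out. Of 644 genes at or above 50 FPKM, 85 had no peak, and 46 of these were left out by name. After the name filter 513 abundant genes stood, of which 474 had a peak and 39, or 7.60%, had none. The genes were thus selected on their level and their lack of a peak, and both are given as descriptions.

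m6A is laid on RNA by a nuclear methyltransferase complex, mostly around stop codons and in long internal exons, and is read by proteins that speed decay, change splicing or promote translation. Exons shielded near splice junctions tend to stay unmethylated, and housekeeping transcripts with short exons are known to carry little of the mark. In the nervous system m6A has been tied to axon growth, synaptic translation and myelination.

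Cord tissue was collected in a neuropathic pain model, spared nerve injury, in which the common peroneal and tibial branches of the sciatic nerve are ligated and cut, on days 3, 7 and 14. In the sham group the sciatic nerve and its branches were exposed and left whole, and sham cord is labelled day 3 only. Each of the 4 groups has 3 input libraries of poly(A)-selected RNA and 3 libraries immunoprecipitated with an m6A antibody, 24 in all. Strain, age and sex of the mice, the side and level of the cord, and whether each library is a separate mouse are not stated in the labels, so p-values measure the spread between these libraries, which may be technical. Because sham is labelled day 3, injury and time since surgery cannot be told apart on days 7 and 14.

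FPKM summed to 180340 to 201358 per library, and depth is unknown because only FPKM was used here. Sham library 3 and day 7 library 3 stood apart from the other 10 and resembled each other, so RNA results are given with and without them. Markers of spinal neurons, oligodendrocytes, astrocytes and microglia were all detected, whereas of the Schwann cell and the dorsal root ganglion markers only 1 of 4 each reached the level tested. In bulk tissue, fewer cells of a type and less RNA per cell cannot be told apart.

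Gene positions printed are those of the deposited table, and all 39 overlap the RefSeq gene of the same name on GRCm38.p6 (Skp1a is listed there as Skp1). The label "mRNA" held for 34 of the 39 genes, which RefSeq lists as protein-coding. The other 5 were Rn7s1 and Rn7s2, the RNA scaffold of the signal recognition particle, Rn7sk, the RNA that holds the elongation factor P-TEFb inactive, Bc1, a neuronal RNA that represses translation in dendrites, and Mpc1-ps, a pseudogene of a mitochondrial pyruvate carrier subunit. All 5 are short, from 168 bp for Bc1 to 331 bp for Rn7sk. Rn7s1 and Rn7s2 are near-identical copies, and Mpc1-ps resembles its parent gene, so the split of reads between such copies is uncertain.

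Bc1 is made by RNA polymerase III from a promoter inside the transcribed part. It is shown because it marks the kind of RNA that the rule let in beside mRNAs. The first 50 transcribed bases, from RefSeq on GRCm38.p6 at chr7:144914470-144914519 on the plus strand, hold a match to the A box, the first internal element of such promoters, printed in capitals.
Bc1: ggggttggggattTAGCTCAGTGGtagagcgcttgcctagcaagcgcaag
Bases 14 to 24 carry the match. A match on either strand of the first 50 transcribed bases was found in 74 of 32544 distinct RefSeq entries, or 0.227%.

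The share of genes without a peak was lowest at middle levels. Among 15564 genes with a mean of at least 0.5 FPKM, 89.4% had a peak in at least 1 list. The share without a peak fell from 20.8% of genes at 0.5 to 1 FPKM to 6.27% at 5 to 10 FPKM. Above that it was higher again, at 9.61% for 20 to 50 FPKM and 14.6% for 50 to 100 FPKM, before any name was left out. At 200 FPKM or more, 9 of 93 genes, or 9.68%, lacked a peak.

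The peak lists differed in how many abundant genes they held. Of the 513 genes, 343 were in all 4 lists, 45 in 3, 78 in 2 and 8 in a single list. A group of 76 genes had peaks in the day 3 and day 14 lists only. The sham list alone lacked 150 of the 513 (29.2%) and the day 7 list 141 (27.5%), against 44 (8.58%) for day 3 and 46 (8.97%) for day 14. Sham and day 7 are the groups that hold the 2 libraries that stand apart; their part in these gaps was not tested. The whole lists held 32669 peaks for sham, 40195 for day 3, 34136 for day 7 and 38655 for day 14.

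**Figure D1:**
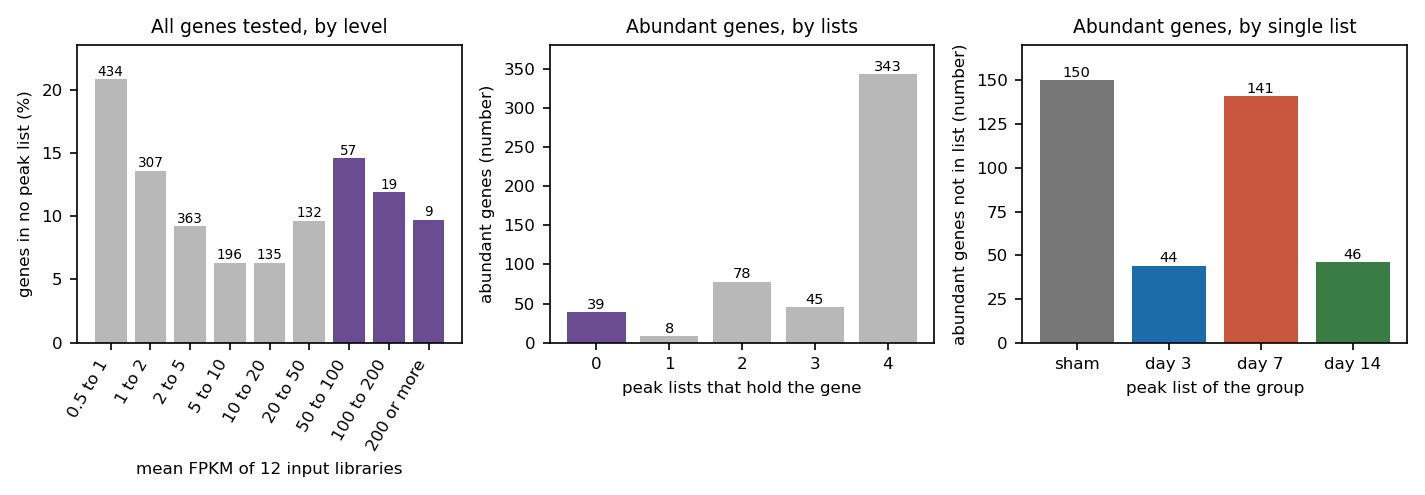
Left, percent of genes tested that are in no peak list (y axis) by mean FPKM (x axis), with the number of such genes above each bar and the range from 50 FPKM upward in purple, before genes were left out by name; middle, number of abundant genes after the name filter by how many of the 4 lists hold them; right, number of these genes absent from each group's list. The share without a peak is lowest at 5 to 20 FPKM, 39 genes are in no list, and the sham and day 7 lists lack 150 and 141 of the abundant genes.

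Just inside the level threshold stood Cct2 at 51.7 FPKM, Slc6a5 at 50.9 FPKM and Atp6ap2 at 50.6 FPKM, and just outside Cct5 at 49.6 FPKM, Ran at 48.8 FPKM and Rnf7 at 48.6 FPKM. On the peak side, 8 abundant genes were kept out by 1 peak in 1 list. The most abundant were the ubiquitin hydrolase Uchl1, with a fold enrichment of 1.59 on day 14, the glycolytic enzyme Pgk1, with 3.63 in sham, and the cyclophilin Ppia, with 4.1 on day 3. These fold enrichments of enriched over input RNA are the authors' own values per peak.

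Some peaks of other genes fell within the span of these genes. On the same strand, a peak listed under Gm43128 lay inside Gsn on day 3 and day 14, with fold enrichments of 3.34 and 3.74, and a peak under Gm26513 lay inside Pfkm on day 3, with 5.86. Without those 2 genes 37 remain. Opposite in strand, peaks of Senp1 lay across Pfkm, of Slc18a1 across Atp6v1b2 and of Zfp839 across Mpc1-ps, with no block of the last inside the pseudogene. In the column of nearest genes, peaks of Frs2 with fold enrichments up to 12.8 were given to Cct2, those of Il25 to Cmtm5, those of Gm43128 to Gsn and those of Zfp839 to Mpc1-ps. "No peak" therefore means none under the gene's own name.

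The protein-coding genes resembled other abundant genes in span. Their median span was 16848 bp, from 1777 bp for Map1lc3a to 111448 bp for Tspan7, against 16283 bp for 467 protein-coding abundant genes with a peak. Spans under 5000 bp were found for 8 of 34 and for 80 of 467. On chromosome X lay 6 of 34 (17.6%), namely Slc25a5, Hprt, Tspan7, Bcap31, Pdha1 and Atp6ap2, against 26 of 467 (5.57%). The gene ontology term for membrane was attached to 15 of 34 (44.1%) against 124 of 467 (26.6%). These shares are descriptions, with no test.

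By role, the genes were counted over 17 lists of gene families, to be read beside the 7.60% of all 513 genes that had no peak; no test was made of any list. The list of vacuolar ATPase, lysosome and tetraspanin genes held 6 of its 24 abundant genes, and the list of ER translocation and vesicle traffic 4 of 20. Pairs came from actin and microtubules (2 of 43), glycolysis and cytosolic metabolism (2 of 16), mitochondrial carriers (2 of 16), protein folding (2 of 13) and myelin (2 of 15). Single genes came from ubiquitin and proteasome (1 of 8), RNA processing (1 of 8), redox (1 of 12) and vessels and meninges (1 of 8). No gene came from the lists for neurons and synapse (0 of 38), G proteins and signalling (0 of 24), translation factors (0 of 14), astrocytes (0 of 9), chromatin (0 of 6) or microglia (0 of 1). The remaining 15 were in no role list, among them Slc6a5 of inhibitory neurons, Lgmn, Pfkm, Snx3 and Bcap31. The lists go by gene name and are not complete, so a count of 0 does not mean that no gene of that kind is in the set.

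For 17 of the genes, 24 close relatives were examined, chosen after the gene set was known. Of these 22 had a peak in at least 1 list and 13 in all 4, beside 474 and 343 of the 513 abundant genes. A peak in at least 1 list was thus about as common among relatives as among abundant genes. Peaks in all 4 lists were less common among relatives than the 66.9% of abundant genes. The relatives were not matched in level, with Srp9 at 7.87 FPKM, and no test was made. Arf1, a small GTPase that builds coat proteins on the Golgi, had none at 108 FPKM, whereas its class I relative Arf3 at 72.1 FPKM had peaks with fold enrichments of 33.2 in sham, 47.3 on day 3, 24.3 on day 7 and 56.8 on day 14. The glycine transporter Slc6a5 of inhibitory neurons had none at 50.9 FPKM, and Slc6a9, the glial form, had peaks in all 4 lists at 45.2 FPKM. Lamp1 had none at 219 FPKM while Lamp2 at 10.8 FPKM was in all 4. Other relatives had weak or partial calls. Tuba1a had fold enrichments of 2.04 on day 3 and 2.15 on day 14 and no peak in sham or on day 7. Actb, Serinc1, Cct7 and Cct8 were also in those 2 lists only. Tuba1c, Slc25a4 and Cct6a were in 3 lists each, and Cct3 was in the day 3 list alone, with 1.2. The chaperonin subunits Cct4 and Cct5 were, like Cct2, in no list.

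Across the 10 libraries other than the 2 that stood apart, the protein-coding genes held steady levels. The ratio of the highest to the lowest of the 10 libraries had a median of 1.10, and it was under 1.2 in 31 of 34 genes. The exceptions were Gsn at 1.68, Cmtm5 at 1.32 and Tspan2 at 1.23. Libraries 1 and 2 of a group differed by a median of 1.75% to 1.97% per gene, so these libraries are close to identical in these genes.

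**Figure D2:**
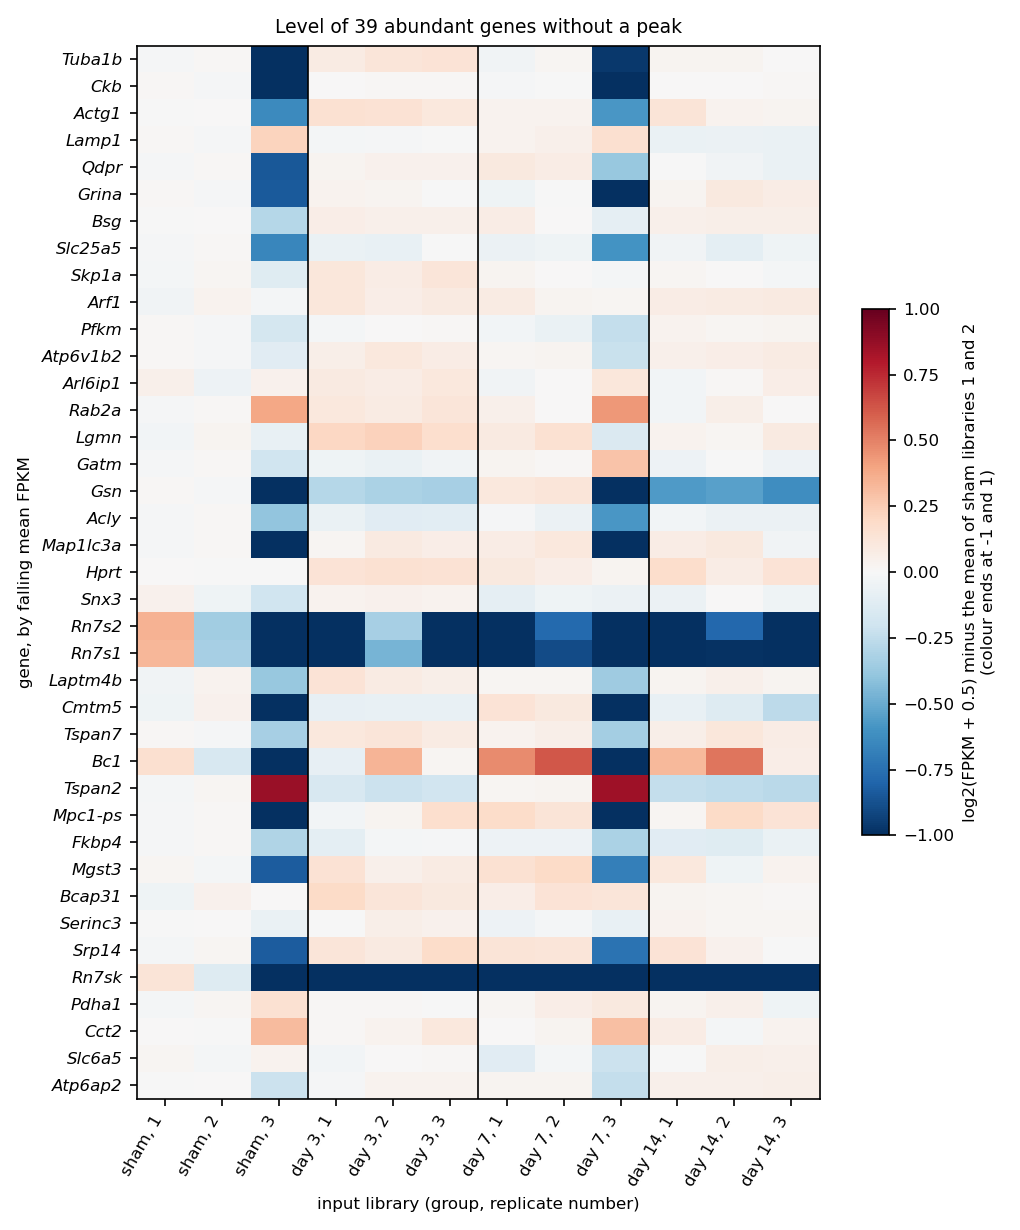
Level of each of the 39 genes (y axis, by falling mean FPKM) in each input library (x axis, group and replicate number), as log2(FPKM + 0.5) minus the mean of sham libraries 1 and 2; colours end at -1 and 1. Sham library 3 and day 7 library 3 share a pattern, Gsn is blue on days 3 and 14, and Rn7s1, Rn7s2 and Rn7sk vary between libraries of a group.

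Cytoskeletal genes led the set. Tuba1b, an alpha-tubulin (chr15:98931425-98934565), was at 463 and 473 FPKM in sham libraries 1 and 2, 497, 509 and 514 FPKM on day 3, 457 and 474 FPKM in day 7 libraries 1 and 2, and 477, 476 and 470.2 FPKM on day 14. Sham library 3 had 232 FPKM and day 7 library 3 had 239 FPKM. The day 3 libraries were the highest of the 12, and the libraries that stood apart were the lowest, in a range of their own. Actg1, cytoplasmic gamma-actin, read 273, 274 and 175 FPKM in sham, 303, 302 and 295 FPKM on day 3, 280.1, 279.5 and 183 FPKM on day 7 and 299, 281 and 279 FPKM on day 14. Day 3 was above sham here too, while day 14 reached into the day 3 range. Both have near-identical relatives or pseudogenes, so the assignment of their reads is uncertain.

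Lysosomal genes formed the next group. Lamp1, a main glycoprotein of the lysosomal membrane, was at 217, 213 and 251 FPKM in sham, 213, 214 and 215 FPKM on day 3, 221, 223 and 240.1 FPKM on day 7 and 206, 206 and 205 FPKM on day 14. The day 14 libraries were the 3 lowest of the 12, by a narrow margin. Lgmn, the lysosomal protease legumain that is abundant in microglia (chr12:102394084-102439813), was at 84.2, 87.7 and 81.5 FPKM in sham, 99.5, 101 and 96.8 FPKM on day 3, 91.4, 95.5 and 77.8 FPKM on day 7 and 88.1, 87.1 and 91.3 FPKM on day 14. All day 3 values were above all others. Summed microglial markers were 43.7, 38.9 and 37.4 FPKM in sham, 56.3, 57.7 and 55.4 FPKM on day 3, 58, 59.1 and 67.8 FPKM on day 7 and 49.7, 51.1 and 51 FPKM on day 14; their part in the Lgmn values was not tested. Subunits of the proton pump that acidifies lysosomes and synaptic vesicles had narrow ranges. Outside the libraries that stood apart, Atp6v1b2 ranged from 93.4 to 101 FPKM and its accessory subunit Atp6ap2 from 50.7 to 53.0 FPKM. Laptm4b, a lysosomal membrane protein, ranged from 68.5 to 77.1 FPKM in the same 10 libraries.

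Genes of vesicle traffic were Arf1, Rab2a, a GTPase between ER and Golgi, Arl6ip1, an ER-shaping protein, Snx3, a sorting nexin of endosomes, Map1lc3a, an LC3 protein of autophagosomes, and Bcap31, an ER membrane chaperone. Over the 10 libraries Arf1 ranged from 102 to 113 FPKM, Rab2a from 82.6 to 91.4 FPKM and Map1lc3a from 81.2 to 89.3 FPKM. In day 7 library 3 and sham library 3, Map1lc3a was at 39.6 and 38.8 FPKM and Rab2a at 114 and 110.3 FPKM. The same 2 libraries were thus the lowest for the first gene and the highest for the second.

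Ckb had the lowest spread of the 39 genes over the 10 libraries, while the other metabolic genes had coefficients of variation from 2.03% for Pfkm to 5.39% for Mgst3, beside a median of 3.25% over the 34 protein-coding genes. Ckb, the brain creatine kinase (chr12:111669361-111672338), stayed between 459 and 468 FPKM in 10 libraries, a coefficient of variation of 0.646%, and was at 206 FPKM in sham library 3 and 209 FPKM in day 7 library 3. Gatm, which makes the creatine precursor, ranged from 80.7 to 86.2 FPKM in the 10, with 103 FPKM in day 7 library 3 and 73.5 FPKM in sham library 3, so the 2 lay on opposite sides of that range. Others of this kind were Pfkm, the muscle-type phosphofructokinase, at a mean of 101 FPKM, Acly, which makes cytosolic acetyl-CoA, at 78.5 FPKM, and Hprt, of purine salvage, at 77.4 FPKM. Mitochondrial genes were Slc25a5, an ADP/ATP carrier, at 119 FPKM and Pdha1, a subunit of pyruvate dehydrogenase, at 51.9 FPKM. Mgst3, a microsomal glutathione transferase, had a mean of 55 FPKM.

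Protein handling was represented by Skp1a, the adaptor of SCF ubiquitin ligases, at a mean of 116 FPKM, Fkbp4, an Hsp90 co-chaperone, at 55.1 FPKM, Cct2, a chaperonin subunit, at 51.7 FPKM, and Srp14, a protein of the signal recognition particle, at 52.9 FPKM. Membrane proteins were Grina at 197 FPKM, Bsg (basigin, a partner of lactate transporters) at 178 FPKM, the tetraspanin Tspan7 at 65.4 FPKM and Serinc3 at 53.6 FPKM. Slc6a5, the glycine transporter that defines glycinergic terminals, read 52.3, 50.8 and 52.8 FPKM in sham, 50.7, 51.8 and 51.9 FPKM on day 3, 47.7, 50.7 and 44.3 FPKM on day 7 and 51.4, 53.7 and 53.4 FPKM on day 14. Day 7 lay below sham and below day 14, by a narrow margin to sham, and the other groups overlapped.

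Gsn, Tspan2 and Cmtm5 had the largest coefficients of variation of the 34 protein-coding genes over the 10 libraries, at 19.7%, 8.69% and 7.97%. They are described here with Qdpr, at 3.41%, as genes known to be expressed in oligodendrocytes; Gsn and Qdpr were in the myelin list, and Tspan2 and Cmtm5 were added after their values were seen. Gsn, gelsolin, which severs actin filaments (chr2:35256380-35307892), was at 105 and 104 FPKM in sham libraries 1 and 2, 85.6, 83.8 and 82.9 FPKM on day 3, 113 and 114 FPKM in day 7 libraries 1 and 2, and 70.3, 71.5 and 67.6 FPKM on day 14. Sham library 3 had 36.4 FPKM and day 7 library 3 had 45.9 FPKM, below every other library. Apart from these 2, no group overlapped another: day 7 was highest, then sham, day 3 and day 14.

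Tspan2, a tetraspanin of oligodendrocytes (chr3:102734529-102801513), followed the same order in part. It was at 55.8 and 57.1 FPKM in sham libraries 1 and 2, 50.3, 48.7 and 49.5 FPKM on day 3, 57.1 and 57.4 FPKM in day 7 libraries 1 and 2, and 47.8, 47.2 and 46.8 FPKM on day 14. Sham and day 7 were alike and above day 3 and day 14, and sham library 3 (103 FPKM) and day 7 library 3 (102 FPKM) were far above all. Cmtm5, a membrane protein of the CMTM family, was at 74.8, 79.1 and 24.3 FPKM in sham, 72.5, 73.1 and 73.2 FPKM on day 3, 84.6, 82.4 and 28.7 FPKM on day 7 and 72.9, 70.4 and 64.1 FPKM on day 14. Qdpr, which recycles tetrahydrobiopterin, was at 207, 210.2 and 116 FPKM in sham, 212, 215 and 214 FPKM on day 3, 223, 219.6 and 160.1 FPKM on day 7 and 208, 203 and 199 FPKM on day 14. In both, day 7 libraries 1 and 2 were the highest of the 12.

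The sum of the oligodendrocyte markers was 4025 and 4007 FPKM in sham libraries 1 and 2, 3520.3, 3514 and 3502 FPKM on day 3, 4205 and 4216 FPKM in day 7 libraries 1 and 2, and 3294, 3314 and 3299 FPKM on day 14. The libraries that stood apart had 3422 FPKM in sham and 3838 FPKM on day 7. In the 10 libraries the groups stood in the same order as for Gsn. Qdpr differed from the sum in that its day 3 libraries were above sham libraries 1 and 2, and Tspan2 in that it was higher, not lower, in the libraries that stood apart. Fibroblasts also express Gsn, and summed meningeal markers were 233, 234 and 447 FPKM in sham, 296, 289.9 and 295 FPKM on day 3, 227, 223 and 218 FPKM on day 7 and 263, 272 and 264 FPKM on day 14. Nearly all of the meningeal sum was Ptgds, with a mean of 267 FPKM, beside 1.82 FPKM for Igf2, 1.39 FPKM for Dcn and 1.17 FPKM for Col1a1. It therefore follows a single gene. The part of oligodendrocytes or fibroblasts in these results was not tested.

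**Figure D3:**
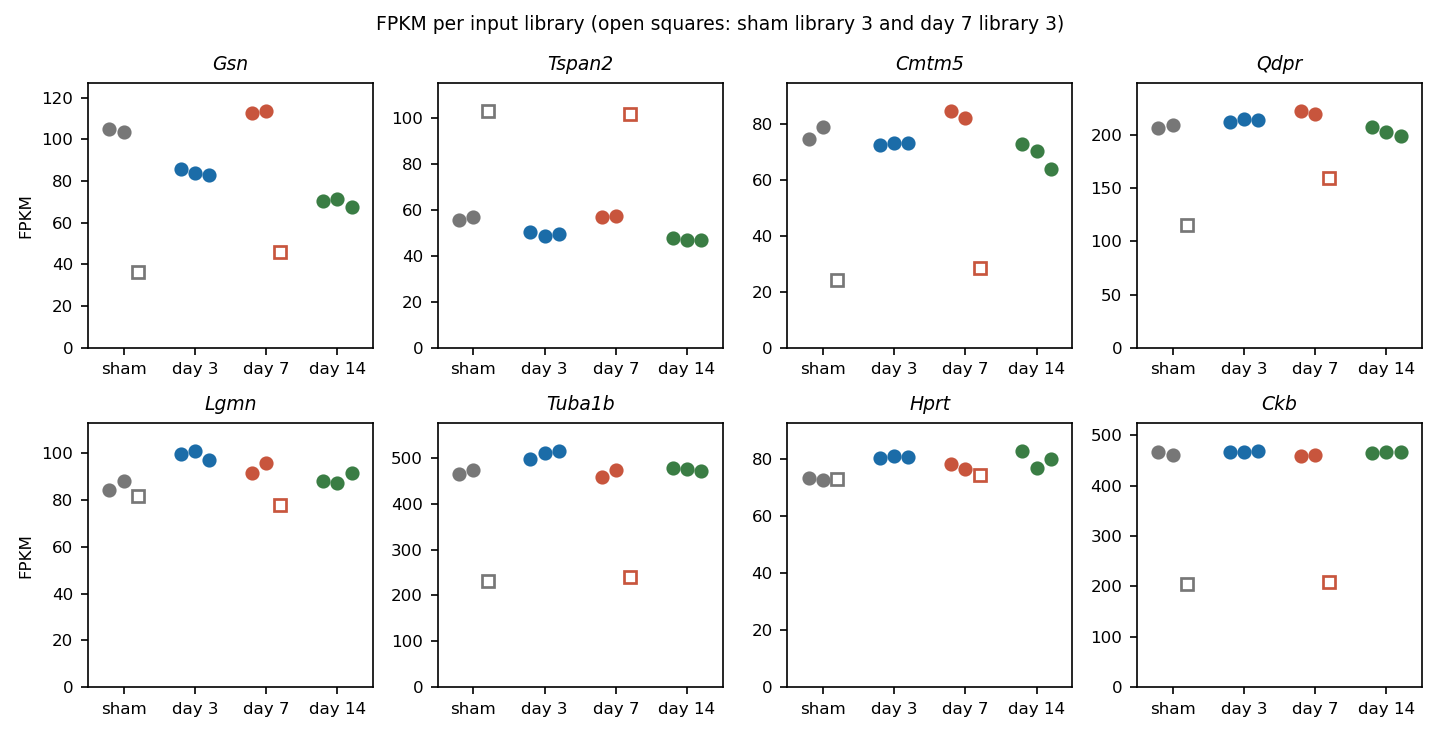
FPKM (y axis, from 0) of 8 genes in each input library, by group (x axis); each point is a library, filled circles are the other 10 libraries and open squares are sham library 3 and day 7 library 3. Gsn, Tspan2, Cmtm5 and Qdpr are higher in day 7 libraries 1 and 2 than on day 14, Lgmn and Tuba1b peak on day 3, and Ckb is level at 459 to 468 FPKM in the 10 libraries.

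In the test over all 12 libraries no gene of the 39 passed in any contrast. The test was limma on log2(FPKM + 0.5) over 15564 genes, with a Benjamini-Hochberg adjusted p under 0.05 as the threshold. Background calls over all genes were 0.0578% for day 3 against sham, 0.103% for day 7 against sham, 0.0514% for day 14 against sham, 0.0129% for day 7 against day 3, 0.0129% for day 14 against day 3 and 0.0321% for day 14 against day 7. At an unadjusted limma p under 0.05 there were 4 genes on day 3 (Skp1a, Lgmn, Hprt and Bcap31), 0 on day 7, 1 on day 14 (Hprt), and, between injured days, 1 for day 14 against day 7 (Slc6a5) and 0 for the other two contrasts. Backgrounds at that threshold were 6.24% on day 3, 2.53% on day 7, 4.92% on day 14, 4.46% for day 14 against day 7, 4.05% for day 7 against day 3 and 1.75% for day 14 against day 3. The 4 genes of day 3 make 10.3% of the 39, and the single genes 2.56%.

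On the 10 libraries without sham library 3 and day 7 library 3, 11 genes passed for day 3 against sham, against a background of 7.07% of all genes. That is 28.2% of the 39, beside 36.5% of the 474 abundant genes with a peak, a lower share, with no test made of that difference. Of the 11, 8 rose (background 4.01%) and 3 fell (3.06%). Lgmn rose by a log2 of 0.20 ± 0.03 (SE, limma, adjusted p = 0.0060) and Hprt by 0.14 ± 0.03 (adjusted p = 0.019). Actg1, Tuba1b, Skp1a, Rab2a, Tspan7 and Atp6v1b2 rose by 0.08 to 0.13 on the log2 scale. Gsn changed by -0.31 ± 0.02 (adjusted p = 0.00029), Tspan2 by -0.19 ± 0.02 (adjusted p = 0.0012) and Acly by -0.10 ± 0.02 (adjusted p = 0.035). In 13 alternatives on these 10 libraries (a replicate block, 2 scalings and each library left out) Gsn and Tspan2 always passed, Lgmn and Tuba1b passed in 12, Actg1 and Tspan7 in 9, Hprt in 8, Skp1a and Atp6v1b2 in 7, Acly in 6 and Rab2a in 2.

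For day 7 against sham none of the 39 passed in the 10-library fit by limma, with a background of 1.11%, while 8.44% of the abundant genes with a peak did. An unadjusted p under 0.05 was found for 12 of the 39, against 12.9% of all genes and 173 of the 474 abundant genes with a peak. Gsn was 0.11 ± 0.03 above sham on the log2 scale (adjusted p = 0.11) and Qdpr 0.09 ± 0.02 (adjusted p = 0.10). Within the pair that stood apart, day 7 library 3 was above sham library 3 by 0.33 for Gsn, 0.47 for Qdpr and 0.24 for Cmtm5, and below it by 0.02 for Tspan2, on the same scale. These are single libraries without a replicate.

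On day 14, 4 genes passed against sham in the 10 libraries, with a background of 4.71% (2.42% rose, 2.29% fell), while 25.9% of the abundant genes with a peak did. Gsn changed by -0.58 ± 0.02 on the log2 scale, or -33.0% (limma, adjusted p = 6.0e-06), Tspan2 by -0.25 ± 0.02 (adjusted p = 0.00026) and Lamp1 by -0.06 ± 0.01 (adjusted p = 0.020). Hprt rose by 0.13 ± 0.03 (adjusted p = 0.037), a call that was lost in 11 of the 13 alternatives (adjusted p from 0.011 to 0.17). Lamp1 passed in 8 of them, and Gsn and Tspan2 in all 13.

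Between injured days the same fit called 3 genes for day 7 against day 3 (background 2.04%), 5 for day 14 against day 3 (1.99%) and 5 for day 14 against day 7 (2.69%). Of the abundant genes with a peak 14.8%, 18.6% and 22.6% passed in these contrasts. From day 3 to day 7 Gsn rose by 0.42 and Tspan2 by 0.21, and Tuba1b fell by 0.12 on the log2 scale. On day 14 against day 7 Gsn fell by 0.69, Tspan2 by 0.27, Cmtm5 by 0.27, Qdpr by 0.12 and Lamp1 by 0.11. On day 14 against day 3 Gsn, Lgmn, Skp1a, Tuba1b and Lamp1 fell by 0.06 to 0.27. In the 13 alternatives Gsn, Tspan2 and the day 7 to day 14 difference of Lamp1 always passed, Tuba1b (day 3 to day 7) and Qdpr passed in 10 and Cmtm5 in 9. The day 3 to day 14 differences passed in 7 for Lgmn, 6 for Tuba1b, 4 for Skp1a and 3 for Lamp1. The contrasts against sham share the sham libraries, and those between days share injured ones.

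The calls on 10 libraries rest on libraries that hardly differ within a group. Averaging near-identical libraries would leave 1 sample per group there and no test. Sham stood apart by group in Gm23935 and Lars2, named after their values were seen. Gm23935 was at 3891 and 3812 FPKM in sham libraries 1 and 2 and 495 to 515 FPKM on day 3. It was at 342 and 325 FPKM in day 7 libraries 1 and 2 and 483 to 497 FPKM on day 14. Lars2 was at 108 FPKM in both sham libraries and 18.1 to 18.7 FPKM on day 3. For day 7 and day 14 it was at 12.1 and 11.9 FPKM and 15.5 to 16.5 FPKM. Their bearing on the contrasts with sham was not tested. With sham library 3 and day 7 library 3 put back, averaging left 6 samples, with day 3 and day 14 as single samples. The spread in that fit came only from the gaps between these libraries and their group mates. It therefore cannot decide whether a gene passes. Over all 12 libraries the log2 difference of Gsn was 0.19 ± 0.42 on day 3 (adjusted p = 0.83) and -0.08 ± 0.42 on day 14 (adjusted p = 0.94), and the day 3 value has the opposite sign. Leaving out 1 further library left 2 to 11 calls on day 3, 2 to 4 on day 14, 2 to 4 for day 7 against day 3, 1 to 5 for day 14 against day 3 and 3 to 6 for day 14 against day 7. Without sham library 1, 2 calls remained on day 3 and without sham library 2, 4.

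Of the role lists, that of myelin and oligodendrocytes, which holds Gsn and Qdpr, is given beside Gsn. In the 10-library fit 13 of its 21 genes fell and 1 rose on day 3, none fell and 3 rose on day 7, and 13 fell on day 14, with median log2 differences of -0.11, 0.06 and -0.16, against medians over all genes of 0.017, 0.0049 and 0.022. Over all genes tested 4.01% rose and 3.06% fell on day 3, 0.732% rose and 0.379% fell on day 7, and 2.42% rose and 2.29% fell on day 14, and of the 474 abundant genes with a peak 36.5%, 8.44% and 25.9% passed in either direction. In the list of vacuolar ATPase, lysosome and tetraspanin genes, 18 of 68 rose and 1 fell on day 3. On day 7, 7 of them rose, and on day 14, 6 rose and 4 fell. The gene that fell on day 3 was the tetraspanin Tspan2, and Tspan7 was among those that rose. Of 120 actin, microtubule and motor genes 11 rose and 9 fell on day 3, and of 233 genes of ER and vesicle traffic 11 rose and 2 fell. Over all 12 libraries no gene of the myelin, lysosome or ER lists passed against sham on any day, nor of the actin list on day 3, and the median of the myelin list on day 3 had the opposite sign, at 0.04. These lists were chosen with earlier results of the same data known.

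The libraries that stood apart set the largest differences for some of these genes, such as Ckb and Tuba1b, but not for all. Against group mates, log2 ratios of Hprt were -0.0033 in sham library 3 and -0.055 in day 7 library 3. Those of Bcap31 were 0.0027 and 0.020. Sham library 3 was lower than the mean of its 2 group mates in 31 of 39 genes (background 53.5%) and day 7 library 3 in 30 of 39 (51.5%). Of the abundant genes with a peak, 67.7% were lower in sham library 3 and 68.8% in day 7 library 3. Median log2 ratios were -0.30 and -0.27, beside -0.24 and -0.26 for abundant genes with a peak and -0.05 and -0.02 for all genes tested. At or below a log2 ratio of -1 stood 10 genes in each library, against 5.68% and 4.22% of all genes. The shares of abundant genes with a peak were 6.54% and 5.49%. Of the 34 protein-coding genes of the set, 5 stood there in each library. Rescaled to a common sum (TPM), the medians were -0.16 and -0.14, with 25 of 39 genes lower in each. Of abundant genes with a peak, 57.2% and 58.4% were lower on that scale. Under median-of-ratios scaling both medians of the 39 genes were -0.25.

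The protein-coding genes at or below -1 in sham library 3 were Cmtm5 at -1.64, Gsn at -1.51, Ckb at -1.17, Map1lc3a at -1.09 and Tuba1b at -1.01. In day 7 library 3 they were Cmtm5 at -1.52, Gsn at -1.29, Map1lc3a at -1.15, Ckb at -1.13 and Grina at -1.06. Highest stood Tspan2, at 0.86 and 0.83, Rab2a, at 0.39 and 0.40, and Cct2, at 0.32 and 0.28.

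**Figure D4:**
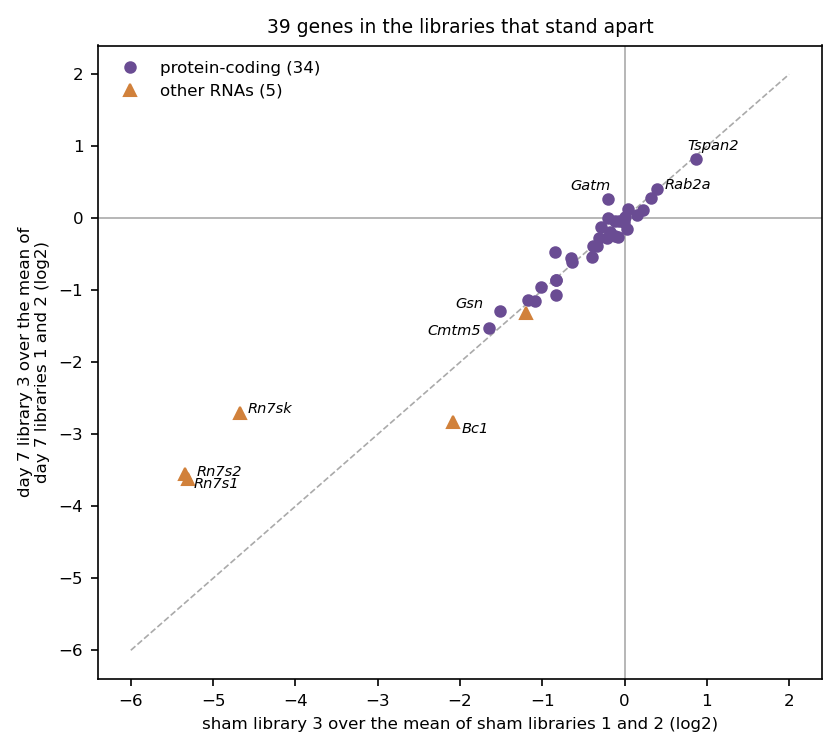
Log2 ratio of sham library 3 to the mean of sham libraries 1 and 2 (x axis) and of day 7 library 3 to the mean of day 7 libraries 1 and 2 (y axis) for the 39 genes; circles are 34 protein-coding genes, triangles the other 5 RNAs, and the dashed line marks equal ratios. Most points lie near the line, with Tspan2 highest at 0.86 and 0.83. Rn7s1, at -5.34 and -3.55, Rn7s2 and Rn7sk lie well above the line. Gatm, Slc6a5 and Snx3 are on opposite sides of 0 in the 2 libraries.

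Of the 4 RNA polymerase III transcripts in the set, Rn7s1, Rn7s2 and Rn7sk varied most over the 10 libraries, with ratios of the highest to the lowest of 18.6, 18.9 and 31.4, beside 1.73 for Bc1. Rn7s1 was at 245, 154 and 4.43 FPKM in sham, 23, 140.5 and 21 FPKM on day 3, 13.2, 105 and 4.56 FPKM on day 7 and 23.7, 97.8 and 28.8 FPKM on day 14. Rn7sk was at 192, 161 and 6.44 FPKM in sham, 15.8, 67.6 and 15.3 FPKM on day 3, 6.13, 61.1 and 4.73 FPKM on day 7 and 17.7, 49.9 and 26.6 FPKM on day 14. Library 2 was the highest in every injured group, sham libraries 1 and 2 were high, and the libraries that stood apart were near the bottom.

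Rn7s2 matched its copy, at 243, 151 and 4.52 FPKM in sham and 22.6, 152 and 20.2 FPKM on day 3. These RNAs lack a poly(A) tail, and the libraries were made from poly(A)-selected RNA. Their means passed 50 FPKM through a few libraries, and Rn7s1 stood at 13.2 FPKM in day 7 library 1. How much of each passed the selection was not tested. In the 10-library fit the log2 difference of Rn7sk on day 7 was -3.13 ± 1.04 (limma, adjusted p = 0.25).

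Few genes shared that library pattern. Of 15564 genes, 22 (0.141%) were more than 2-fold higher, on the log2(FPKM + 0.5) scale, in library 2 of all 3 injured groups than in the mean of the other libraries, with day 7 library 3 left aside. These 3 RNAs were among them. In 19 of the 22, sham library 1 was above sham library 2. The group included the spliceosomal RNA genes Rnu1a1 and Rnu2-10, and genes of other organs, all named after their values were seen: Alb, liver albumin, was at 29.5, 4.99 and 0.0526 FPKM in sham and 0.0594, 85.4 and 3.09 FPKM on day 3, and Acta1, skeletal muscle actin, at 3.98, 0.339 and 0.915 FPKM and 0.843, 4.2 and 0.328 FPKM. Bc1 did not share it in full, with 67.1, 53.4 and 13.8 FPKM in sham, 56.4, 76 and 60.5 FPKM on day 3, 83.2, 92.3 and 11.9 FPKM on day 7 and 75, 86.8 and 62.8 FPKM on day 14. Mpc1-ps was at 62.1, 63.4 and 27.1 FPKM in sham and 71.3, 68.6 and 27.7 FPKM on day 7, low only where the library stood apart.

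**Figure D5:**
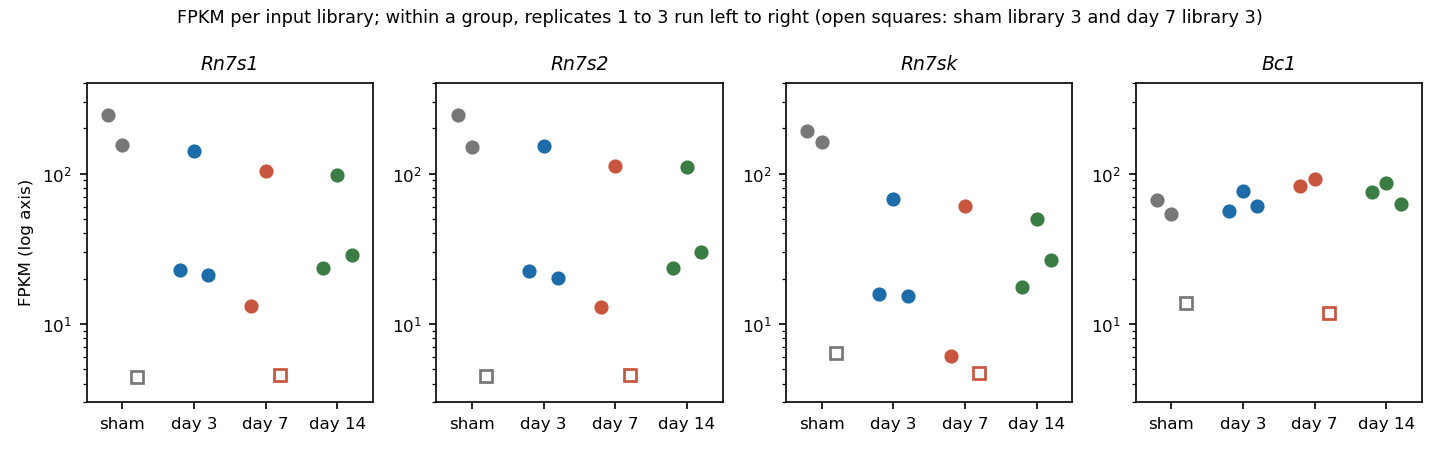
FPKM (y axis, log scale) of Rn7s1, Rn7s2, Rn7sk and Bc1 in each input library by group (x axis), with replicates 1 to 3 from left to right within a group; open squares are sham library 3 and day 7 library 3. Replicate 2 is the highest of each injured group for the first 3 RNAs, and Bc1 is low only in the open squares.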

How the data were processed

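Input RNA levels were deposited as FPKM per gene for 12 libraries, per the file headers. Peaks were deposited as 1 list per group, with a fold enrichment (a ratio of enriched over input) and base 10 logarithms (log10) of p and false discovery rate per peak, per the file headers; neither the caller, the build nor any pooling of libraries is given in the sources used here. Per the submitters' processing notes the tools were HISAT2, StringTie, edgeR and ChIPseeker, without roles or versions. Per the labels' protocols, poly(A) RNA was selected in 2 rounds before fragmentation, and the second strand was marked with dUTP.

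Members were selected in Python 3.11.15 with pandas 2.3.3 and matched to RefSeq genes of GRCm38.p6 by symbol, 39 of 39. Genes reaching a mean of 0.5 FPKM were tested with limma 3.58.1 in R 4.3.3 (trend) on log2(FPKM + 0.5), with 4 group means in 1 fit and Benjamini-Hochberg adjustment per contrast over 15564 genes. Standard errors are those of the fit. The step was tested on simulated data, drawn as independent libraries with none that stood apart. How it behaves with libraries that stand apart or are not independent was not tested. Depth is unknown, so no counting error is given. Fold changes on this scale understate changes of low genes.

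The members and all lists were chosen with earlier results of these data known. Genes were named when they passed a contrast, were among the 10 most abundant or the 4 most abundant of a role, showed the largest differences per contrast or in the libraries that stood apart, or lay next to a threshold. The remaining members are named so that all are accounted for, and the relatives and the genes sharing the library 2 pattern were chosen after values were seen. Left out of the comparison: values per enriched library, which were not used here.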

Additional observations from a re-analysis of the deposited data

Results flagged for a closer look

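These genes differed directly between injured days in the limma fit on 10 libraries, without sham library 3 and day 7 library 3; values are log2 differences with adjusted p. From day 3 to day 7, Gsn differed by 0.42 (adjusted p = 8.4e-05), Tspan2 by 0.21 (adjusted p = 0.0014) and Tuba1b by -0.12 (adjusted p = 0.018). From day 3 to day 14, Gsn differed by -0.27 (adjusted p = 0.0017), Lgmn by -0.16 (adjusted p = 0.031), Skp1a by -0.11 (adjusted p = 0.039), Tuba1b by -0.10 (adjusted p = 0.038) and Lamp1 by -0.056 (adjusted p = 0.041). From day 7 to day 14, Gsn differed by -0.69 (adjusted p = 2.7e-06), Tspan2 by -0.27 (adjusted p = 0.00026), Cmtm5 by -0.27 (adjusted p = 0.024), Qdpr by -0.12 (adjusted p = 0.011) and Lamp1 by -0.11 (adjusted p = 0.0022).

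Over all 12 libraries none of these 13 differences passed, with adjusted p from 0.78 to 1. Those from day 3 to day 14 had the same log2 values in both fits, since neither group holds a library left out. Only the estimate of spread shared by all groups differed for them. Groups of 3 libraries were too small for a check of single outlying values.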

How the results depend on the processing

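Over all 12 libraries the count of members called was 0 in all 6 contrasts under each pseudocount, filter, scaling and replicate block, and without each single library. A fit of the groups compared only called 3 for day 14 against day 3. Averaging near-identical libraries into 6 samples left day 3 and day 14 as single samples, so no count is given for it. Leaving out sham library 3 and day 7 library 3 together gave 11 for day 3 against sham and 4 for day 14 against sham. Between injured days it gave 3 for day 7 against day 3, 5 for day 14 against day 3 and 5 for day 14 against day 7. For day 14 against day 3 both groups kept all their libraries, and the log2 differences were the same in both fits. There the fits differ in the estimate of spread, which all groups share. The cause in the other contrasts was not tested.

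On those 10 libraries, with settings chosen after seeing the data, a replicate block gave 7 on day 3, 2 on day 14, 1 for day 14 against day 3 and 3 for day 14 against day 7, and TPM gave 2 for day 14 against day 3. Leaving out 1 more library gave 2 to 11, 2 to 4, 1 to 5 and 3 to 6 in these 4 contrasts, and 2 to 4 for day 7 against day 3; 1 library then stood alone in some groups and was assumed to vary like the others. Of 28 gene and contrast pairs that passed on 10 libraries, 10 passed in all 13 alternatives, namely Gsn in 5 contrasts, Tspan2 in 4 and Lamp1 for day 14 against day 7, and none reversed. Same-numbered libraries correlated at -0.11 to 0.79 in their deviations, with 7 of 18 pairs over 0.1 and 8 of 12 libraries closest to their own number. These values do not settle whether the numbers pair libraries. The main fits leave the number out, and the replicate block is given as an alternative.

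Signs that turned against the 12-library values were those of Gsn on day 3 (-0.31 without both libraries, -0.31 to 0.45 leaving out 1), Gsn on day 14 (0.18 averaged, -0.58 to 0.18 leaving out 1), Gsn from day 3 to 7 (0.049 by TPM, 0.010 by median-of-ratios, 0.42 without both, -0.22 to 0.42), Qdpr from day 7 to 14 (-0.0040 by TPM, -0.12 without both, -0.12 to 0.12), Rab2a on day 3 (0.10 without both, -0.10 to 0.10), Acly on day 3 (-0.019 by TPM, -0.00023 by median-of-ratios, -0.10 without both, -0.10 to 0.11) and Cmtm5 from day 7 to 14 (-0.27 without both, -0.27 to 0.50), on the log2 scale.

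The number of members was 87 from 25 FPKM, 11 from 100 FPKM, 103 when only stronger peaks counted (fold enrichment from 2 upward, p up to 1e-05), 150 by the sham list alone, 85 without the name filter and 37 without same-strand overlaps.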
